A study of Mus musculus with 10 samples.

Results

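The extracellular matrix genes outside the collagens were followed in cardiomyocytes (heart muscle cells) after a dominant-negative form of the coactivator MKL1 was expressed in them. The set holds 45 genes chosen by name for their role: matrix glycoproteins, proteoglycans, laminins, crosslinking enzymes, metalloproteinases and their inhibitors, several of which are also used as fibroblast or pericyte markers. All 45 were found by gene symbol among the 23337 rows of the authors' deposited table, and all 45 are among the 14056 genes that carry an adjusted p-value there. There were 5 GFP and 5 dnMKL1 libraries, and both groups came from wildtype mice. At postnatal day 1 an AAV9 vector was injected at 5e+08 viral genomes per gram, with its insert under the cTNT (cardiac troponin T) promoter, which drives expression in heart muscle; it carried GFP alone in the control group and dnMKL1 with GFP in the other. Both groups were collected at postnatal day 14 by retrograde collagenase perfusion of the heart and fluorescence-activated cell sorting. The strain and sex of the mice and the construction of dnMKL1 are not given in the sources used here.

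MKL1, also called MRTF-A, moves to the nucleus when monomeric actin is scarce and activates genes together with serum response factor (SRF); a dominant-negative form interferes with this. The cardiac matrix is secreted mostly by fibroblasts, but cardiomyocytes make part of their own basement membrane, the laminin-rich sheet that ties each muscle cell to its surroundings. Around it lie elastic and microfibrillar fibres, proteoglycans and matricellular proteins, which signal to cells more than they bear load. Lysyl oxidases crosslink the fibres, metalloproteinases cut them, and TIMP proteins inhibit those proteases.

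The deposited table gives 1 comparison and no values per library, so each gene is described by its base mean (the mean normalized count over the 10 libraries), its log2 fold change of dnMKL1 over GFP and the standard error (SE) of that change, which carries the spread between libraries. An implied mean for each group, in normalized counts, follows from the base mean and the change. Estimated totals ran from 8803005 to 17123500 counts in the GFP libraries and from 8835151 to 17228537 in the dnMKL1 libraries. Mkl1, from which the vector's product derives, was listed with a log2 change of 9.80 (SE 0.15) in the authors' deposited table, and the sign of every other change was read from it.

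Matrix genes were higher in dnMKL1 cardiomyocytes or did not pass the test. Of the 45 genes, 23 rose and 0 fell at a Benjamini-Hochberg adjusted Wald p under 0.05 in the authors' deposited table, beside 16.6% of all tested genes that rose and 17.4% that fell. No member with a negative change had an unadjusted p under 0.05, while 31 of 45 members had one in all. The share of all tested genes below 0.05 before adjustment was not computed, so this count has no background beside it. The median log2 fold change computed over the 45 members was 0.58, against 0.021 over all genes tested, and 38 members had a positive value and 7 a negative one. The largest rises were those of the secreted glycoproteins Thbs4 and Thbs1, the surface proteoglycan Cspg4 and the crosslinking enzyme Loxl2, each with a log2 fold change above 2 in the authors' deposited table. The set's summed implied means were 41669 normalized counts for GFP and 57947 for dnMKL1.

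**Figure D1:**
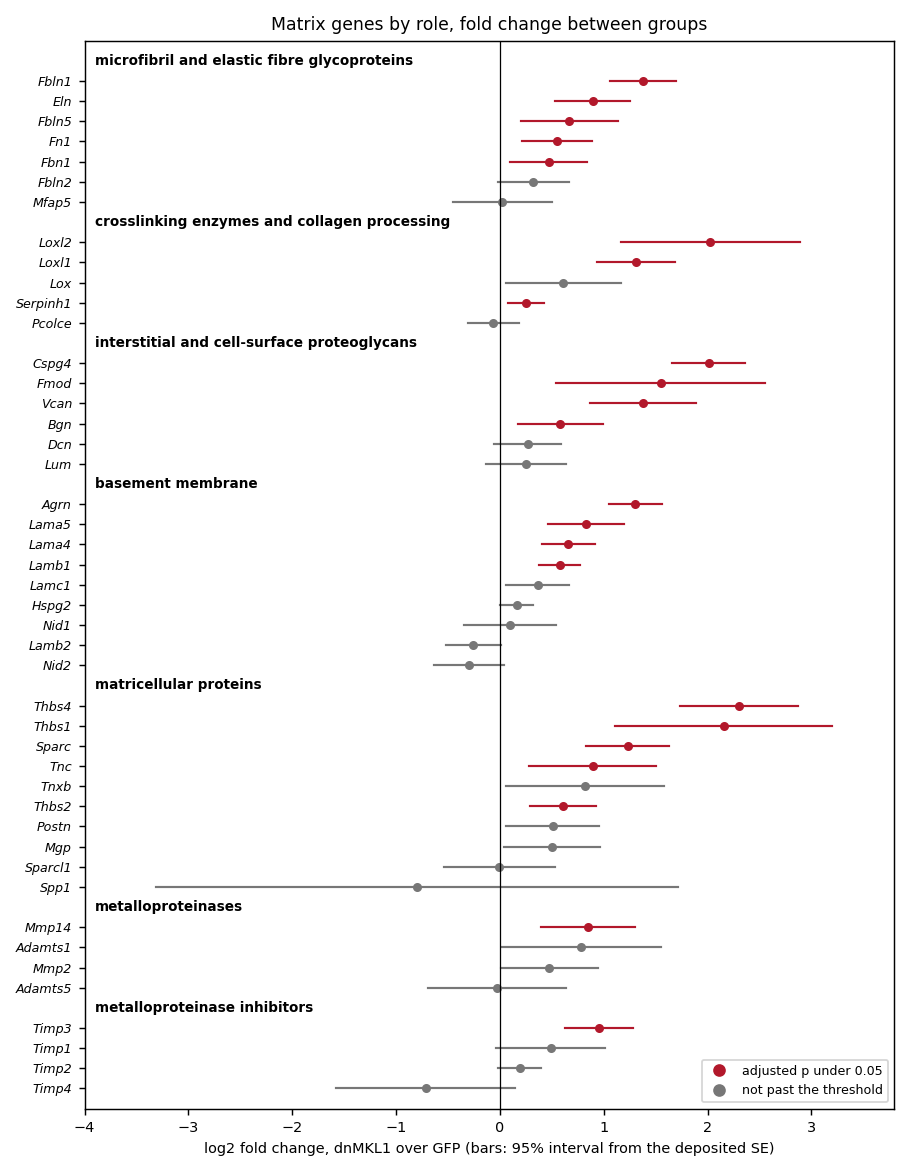
Log2 fold change of dnMKL1 over GFP (x axis) for each of the 45 matrix genes, grouped by role; points are the deposited values, bars their 95% intervals from the deposited SE, and red marks an adjusted p under 0.05. All 23 red points lie to the right of 0, and the interval of no member lies wholly to its left.

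The excess over other genes was present at each abundance that held more than 1 member. Of 13 members with base means from 10 to 100, 46.2% rose, against 19% of all tested genes in that range. From 100 to 1000 it was 52.9% of 17 members against 20%, and from 1000 to 10000 it was 57.1% of 14 members against 14.4%. In that last range 40.1% of all tested genes fell, and their median log2 fold change was -0.13, while the members' median was 0.62. Across the 45 members the fold change had no trend with the base mean (Spearman's rho = 0.023, a description of genes that share libraries), whereas over all tested genes rho was -0.24. Scaling both groups to the same total adds 0.29 to every log2 fold change; 36 members were then higher and 0 lower, beside 40.4% and 6.6% of all tested genes. Under the authors' scaling, 17 members were higher at an adjusted p under 0.01 (11.9% of all tested genes), 28 under 0.1 (19.8%), 22 when all p-values entered the adjustment (12.8%), 17 of 31 at base means from 100 upward (18.4%) and 10 with a log2 fold change of at least 1 (4.65%).

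**Figure D2:**
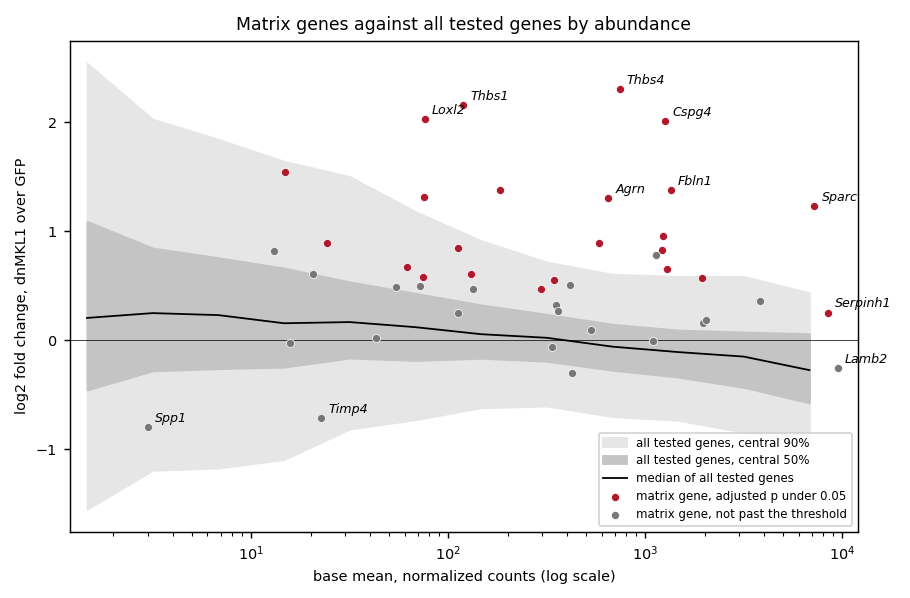
Log2 fold change (y axis) of the 45 matrix genes against their base mean in normalized counts (x axis, log scale), over bands that hold the central 50% and 90% of all tested genes at each abundance, with their median as a black line. The median line falls with abundance, and Cspg4, Fbln1 and Sparc, all with base means above 1000, lie above the outer band or beyond its right end.

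Among the microfibril and elastic fibre glycoproteins, 5 of 7 rose and 0 fell. Fbln1, a fibulin that binds fibronectin and basement membranes, went from an implied mean of 748 normalized counts in GFP to 1944 in dnMKL1 cells. The authors' deposited table listed a log2 change of 1.38 for it (SE 0.16, Benjamini-Hochberg adjusted Wald p = 2.61e-15). Eln, which encodes elastin, went from 407 to 755 normalized counts, with a log2 fold change of 0.89 (SE 0.19, Benjamini-Hochberg adjusted Wald p = 1.51e-05) in the authors' deposited table. Smaller rises were listed there for Fbln5, a fibulin needed for elastic fibre assembly, Fn1 (fibronectin, the fibrillar glycoprotein to which many cells attach) and Fbn1 (fibrillin, the main microfibril protein). Their log2 changes, as the authors' deposited table lists them, were 0.67 (SE 0.24), 0.55 (SE 0.17) and 0.47 (SE 0.19), with Benjamini-Hochberg adjusted Wald p-values of 0.0184, 0.0055 and 0.0406. Of all the rises in the set, that of Fbn1 was nearest to the threshold. Fbln2 and the microfibril-associated Mfap5 did not pass, at 0.32 (SE 0.17) and 0.024 (SE 0.24) in the authors' deposited table. The implied means of Mfap5, which also serves as a fibroblast marker, were 42.7 and 43.4 normalized counts.

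Of the 5 crosslinking and collagen-processing genes 3 rose. Loxl2, a lysyl oxidase-like enzyme that crosslinks collagen and elastin, had implied means of 30.0 normalized counts in GFP and 122 in dnMKL1 cells. For Loxl2 the authors' deposited table listed a log2 change of 2.03 (SE 0.44, Benjamini-Hochberg adjusted Wald p = 3.35e-05), which gives a 4.08-fold change with a 95% interval from 2.25 to 7.40. Loxl1, the family member tied to elastin, had the narrower interval: 43.0 and 107 normalized counts, and a log2 fold change of 1.31 (SE 0.19, Benjamini-Hochberg adjusted Wald p = 1.82e-10) in the authors' deposited table. Lox, the founding lysyl oxidase, was scarce at a base mean of 20.7 and did not pass, with 0.61 (SE 0.28) in the authors' deposited table. Serpinh1, the collagen chaperone HSP47, was by far the most abundant of these genes and had the smallest rise, from 7684 to 9158 normalized counts; the authors' deposited table gave it 0.25 (SE 0.09, Benjamini-Hochberg adjusted Wald p = 0.0166). Pcolce, which enhances procollagen cleavage, stood at -0.06 (SE 0.13) in the authors' deposited table and turned to 0.23 with both groups scaled to the same total.

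The proteoglycans gave 4 rises among 6 members. Cspg4 encodes NG2, a membrane-spanning chondroitin sulfate proteoglycan best known from pericytes, and its implied mean went from 501 to 2019 normalized counts. Its log2 change of 2.01 in the authors' deposited table (SE 0.18, Benjamini-Hochberg adjusted Wald p = 2.35e-26) had the smallest adjusted p of the 45 genes. Vcan, the large hyaluronan-binding proteoglycan versican of the embryonic heart, went from 102 to 264 normalized counts, with 1.38 (SE 0.26, Benjamini-Hochberg adjusted Wald p = 1.42e-06) in the authors' deposited table. The small leucine-rich proteoglycans, which bind collagen fibrils, were uneven. In the authors' deposited table Fmod (fibromodulin) had 1.55 (SE 0.51) and Bgn (biglycan) 0.58 (SE 0.21), with Benjamini-Hochberg adjusted Wald p-values of 0.0103 and 0.0193. The Fmod values rest on implied means of only 7.59 and 22.2 normalized counts. Dcn (decorin) and Lum (lumican), the members of this family most used as fibroblast markers, did not pass, at 0.27 (SE 0.16) and 0.25 (SE 0.20) in the authors' deposited table.

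Basement membrane genes split between chains: 4 of 9 rose, and the other 5 did not pass. A laminin is a trimer of an alpha, a beta and a gamma chain, and the alpha chains of the set, Lama4 and Lama5, rose. Lama2, an alpha chain outside the set, had 0.10 (SE 0.19, Benjamini-Hochberg adjusted Wald p = 0.745) in the authors' deposited table, at a base mean of 2343. Lama4 went from 1002 to 1581 normalized counts and Lama5 from 877 to 1561. Their log2 changes, as the authors' deposited table lists them, were 0.66 (SE 0.13) and 0.83 (SE 0.19), with Benjamini-Hochberg adjusted Wald p-values of 5.23e-06 and 6.76e-05. The beta chain Lamb1 had 0.58 (SE 0.10, Benjamini-Hochberg adjusted Wald p = 1.39e-07) in the authors' deposited table, with implied means of 1566 and 2333 normalized counts. The other beta chain of the set, Lamb2, was the most abundant of the 45 genes by base mean, at 9454 normalized counts, and did not pass. The authors' deposited table listed Lamb2 at -0.26 (SE 0.13), with a 95% interval from -0.52 to 0.0066. Scaling to the same total turned this to 0.031. Lamc1, the gamma chain shared by most laminins, was just outside the threshold with 0.36 (SE 0.16, Benjamini-Hochberg adjusted Wald p = 0.0545) in the authors' deposited table. Whether the chains differ from each other in their response was not tested, since the values of the single libraries were not used here.

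Agrn, which encodes agrin, a heparan sulfate proteoglycan that binds dystroglycan and clusters receptors at the nerve-muscle junction, had the largest change in the basement membrane. Its implied mean went from 374 to 924 normalized counts, and the authors' deposited table listed a log2 change of 1.30 (SE 0.13, Benjamini-Hochberg adjusted Wald p = 8.82e-21). The other large heparan sulfate proteoglycan, perlecan (Hspg2), had 0.16 (SE 0.08, Benjamini-Hochberg adjusted Wald p = 0.109) in the authors' deposited table. At the smallest SE of the set, its 95% interval ran from a 1.003-fold to a 1.25-fold change, and Hspg2 did not pass. The nidogens, which link laminin to collagen IV, had 0.097 (SE 0.22) for Nid1 and -0.30 (SE 0.17) for Nid2 in the authors' deposited table, and neither passed.

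Matricellular proteins held the 2 largest changes of the set, and 5 of 10 rose. Thbs4, a thrombospondin of heart and tendon that is induced in stressed muscle, went from an implied mean of 250 normalized counts in GFP to 1232 in dnMKL1 cells. For Thbs4 the authors' deposited table listed a log2 change of 2.30 (SE 0.29, Benjamini-Hochberg adjusted Wald p = 1.32e-13), a 4.93-fold change with a 95% interval from 3.32 to 7.32. Thbs1, the thrombospondin known for activating latent TGF-beta, went from 43.6 to 194 normalized counts. The authors' deposited table lists its log2 change as 2.15 (SE 0.53, Benjamini-Hochberg adjusted Wald p = 3.40e-04), an interval in fold terms from 2.16 to 9.18. Thbs2, an inhibitor of vessel growth like Thbs1, had 0.61 (SE 0.16, Benjamini-Hochberg adjusted Wald p = 9.73e-04) in the authors' deposited table, and its implied means were 104 and 158 normalized counts.

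Sparc, a collagen-binding glycoprotein, added more counts to the set's total than any other member, going from 4308 to 10107 normalized counts. The authors' deposited table gave Sparc a log2 value of 1.23 (SE 0.20, Benjamini-Hochberg adjusted Wald p = 3.33e-08). Its close relative Sparcl1 had implied means of 1092 and 1088 normalized counts, and -0.0056 (SE 0.27) in the authors' deposited table; scaling to the same total turned this to 0.28. Tnc, tenascin C, a protein of embryonic and injured heart, rose from a low level of 17.1 to 31.7 normalized counts, with 0.89 (SE 0.31, Benjamini-Hochberg adjusted Wald p = 0.0150) in the authors' deposited table. Postn (periostin, a marker of activated fibroblasts), Mgp (matrix Gla protein, an inhibitor of calcification) and Tnxb (tenascin X) did not pass. Their log2 changes, as the authors' deposited table lists them, were 0.51 (SE 0.23), 0.50 (SE 0.24) and 0.82 (SE 0.39), with Benjamini-Hochberg adjusted Wald p-values between 0.0730 and 0.0895. Spp1, osteopontin, was close to absent at a base mean of 3.0 normalized counts, and its value in the authors' deposited table, -0.80 (SE 1.28), allows no direction.

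Thbs4 also carried the only adjoining pair of motif matches in the promoter windows examined. The RefSeq table (GRCm38.p6) held 300-base windows, 250 before and 50 after a start, for 29 of the 45 genes, 35 windows in all. Searched on both strands, the CArG box bound by SRF was in 0 of the 35 windows and in 1.63% of 32851 windows of all genes. The TEAD motif GGAATG was in 3 of 35 (Thbs4, Nid1 and Timp1) and in 14.7% of all windows. The AP-1 motif TGANTCA was in 1 of 35 (Tnxb) and in 7.81% of all. These are matches of letters in short windows and not measured binding sites. The 250 bases before the start are shown 5′ to 3′ on the gene's strand for Thbs4, which has the largest rise and where capitals mark a pair of TEAD motifs on the opposite strand that overlap by 1 base, and for Fbln1 and Agrn, 2 of the genes with the smallest adjusted p, where none of the 3 motifs was found. They lie at chr13:92794819-92795068 (minus strand), chr15:85205699-85205948 (plus strand) and chr4:156197489-156197738 (minus strand), just outside the first exon of each gene.
Thbs4: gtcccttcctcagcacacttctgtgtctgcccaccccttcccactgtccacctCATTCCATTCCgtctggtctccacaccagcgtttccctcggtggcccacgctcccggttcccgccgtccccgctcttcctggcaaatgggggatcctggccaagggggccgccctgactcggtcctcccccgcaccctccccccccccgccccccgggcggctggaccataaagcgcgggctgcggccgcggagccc
Fbln1: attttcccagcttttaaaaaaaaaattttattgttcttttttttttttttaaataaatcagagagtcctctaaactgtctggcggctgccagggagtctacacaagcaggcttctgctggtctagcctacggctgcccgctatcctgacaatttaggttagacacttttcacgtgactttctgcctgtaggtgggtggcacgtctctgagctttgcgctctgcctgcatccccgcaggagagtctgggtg
Agrn: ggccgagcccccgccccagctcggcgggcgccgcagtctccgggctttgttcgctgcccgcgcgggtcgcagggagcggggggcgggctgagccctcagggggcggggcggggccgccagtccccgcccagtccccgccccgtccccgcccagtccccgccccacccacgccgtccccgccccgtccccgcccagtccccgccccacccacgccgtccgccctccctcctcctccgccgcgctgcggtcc
G and C made up 70.8% of the Thbs4 stretch, 46.4% of the Fbln1 stretch and 83.6% of the Agrn stretch, so base composition differed widely among these 3 promoters of genes that rose.

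Of the 4 proteases 1 rose, and of the 4 inhibitors 1 rose, shares over so few genes that they cannot be set apart from the 16.6% of all tested genes. Mmp14, the membrane-bound metalloproteinase that activates Mmp2, went from 80.2 to 144 normalized counts, with a log2 fold change of 0.85 (SE 0.23, Benjamini-Hochberg adjusted Wald p = 0.00142) in the authors' deposited table. Mmp2, gelatinase A, had 0.47 (SE 0.24, Benjamini-Hochberg adjusted Wald p = 0.113) in the authors' deposited table and did not pass. Adamts1, a versican-cutting protease, stood at 0.78 (SE 0.39, Benjamini-Hochberg adjusted Wald p = 0.111) in the authors' deposited table, and its implied means were 832 and 1432 normalized counts. Adamts5, its neighbour on chromosome 16 and the chief aggrecan-cutting enzyme, stood at -0.028 (SE 0.34) in the authors' deposited table and turned to 0.26 under scaling to the same total.

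Timp3, the inhibitor that stays bound to the matrix, went from 836 to 1620 normalized counts and had 0.95 (SE 0.17, Benjamini-Hochberg adjusted Wald p = 2.33e-07) in the authors' deposited table. In the GENCODE models 21.3% of the exon bases of Timp3 lie in exons of Syn3 on the opposite strand. Reads of the pair cannot be told apart by strand, since the library kit does not mark it. The other members with more than 10% of their exon bases shared were Fbn1 (20.1%, with Gm9913) and Spp1 (18.8%, with Gm42793). The soluble inhibitors Timp1 and Timp2 did not pass, with 0.49 (SE 0.27) and 0.19 (SE 0.11) in the authors' deposited table. Timp4, the inhibitor most typical of heart, was scarce at a base mean of 22.7 normalized counts and had -0.71 (SE 0.44) in the authors' deposited table, with a 95% interval from -1.58 to 0.15.

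Levels of different genes were compared as implied group means per kilobase of exon. Serpinh1 headed the set at 3145 normalized counts per kilobase in GFP and 3749 in dnMKL1 cells. Lamb2 came second in GFP at 1692, ahead of Sparc at 1137, and in dnMKL1 cells Sparc stood at 2668 and Lamb2 at 1416. All 3 lay in the top 2% of 15636 genes so ranked by base mean per kilobase, from percentile 98.2 to 99.2, whereas Tnxb, at the bottom of the set, lay at percentile 23.5. Among the laminin chains of the set in GFP cells Lamb2 was followed by Lamc1 at 402 and Lamb1 at 158 normalized counts per kilobase. Lama4 at 83.04 and Lama5 at 77.0 came next. Laminin chains outside the set, such as Lama2, were not ranked here. Thbs4 moved from 76.0 to 375, a level above that of Lamb1 in either group, while Thbs1 moved from 7.18 to 32.0 and Thbs2 from 14.8 to 22.6. Timp2 was the leading inhibitor in both groups at 489 and 558, and Timp3 had 103 and 199. These levels have no error of their own, so close neighbours in the order, such as Lama4 and Lama5, cannot be ranked.

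**Figure D3:**
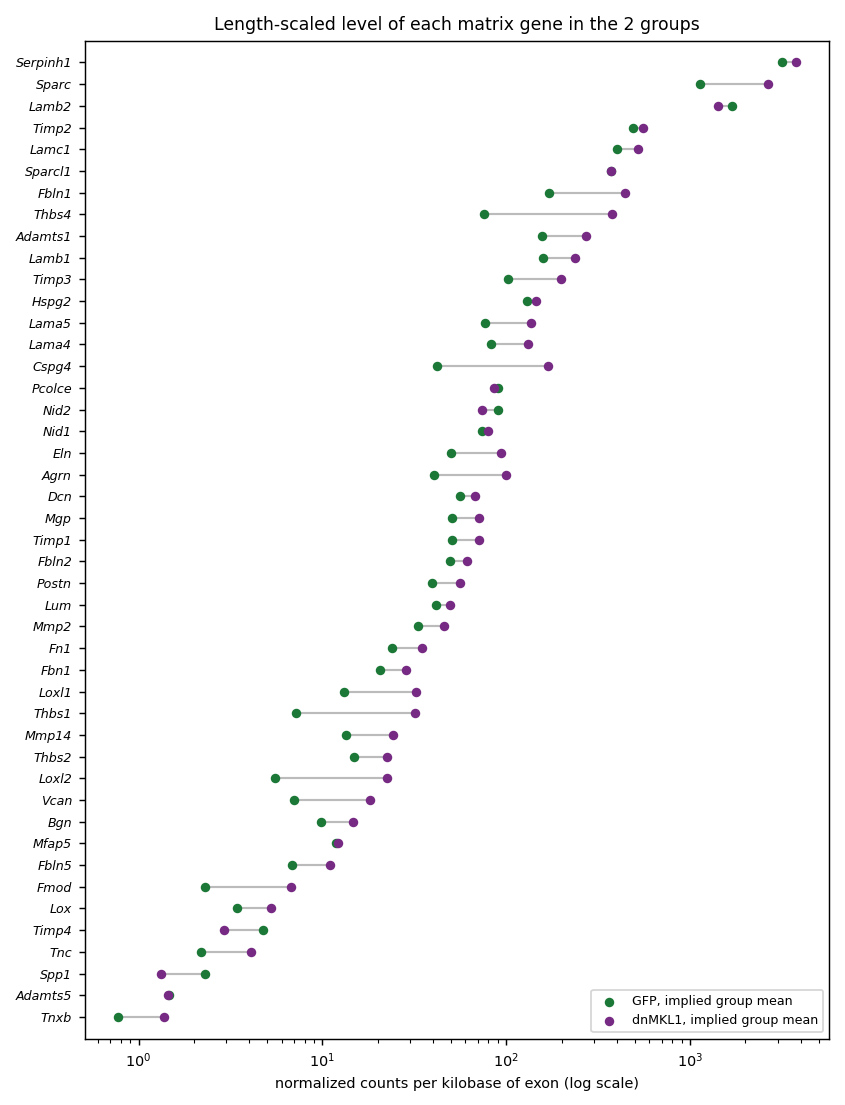
Implied group means of the 45 matrix genes in normalized counts per kilobase of exon (x axis, log scale), in GFP (green) and dnMKL1 (purple) cells, ordered by base mean per kilobase. Long grey lines mark large differences, as for Thbs4 from 76.0 to 375 and Cspg4 from 42.0 to 169, while the points of Sparcl1 and Mfap5 coincide or nearly so.

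Most matrix genes had larger SEs than other genes of like abundance, but this was not particular to them. Endothelial markers outside the set were also wide, such as Pecam1 with an SE of 0.30 at a base mean of 497. The median SE around Nid1, at a base mean of 532, was 0.10. The SE of a member was a median of 1.43 times the median SE of the 200 tested genes nearest to it in base mean, and it was at least 2 times as large for 7 members. Adamts1 stood highest at 3.89 times, followed by Thbs1 at 3.25, Thbs4 at 2.90 and Sparcl1 at 2.87. Loxl2, Nid1 and Postn had ratios of 2.35, 2.25 and 2.09. Which libraries the spread comes from was not tested. At the other end Lox, Adamts5, Serpinh1 and Hspg2 had ratios from 0.82 to 0.88.

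Other matrix genes, from lists of related genes outside the set, changed in both directions, with more rises than falls. Of 121 with an adjusted p-value 39 rose and 13 fell, beside 16.6% of all tested genes that rose and 17.4% that fell. Of 34 further glycoproteins with an adjusted p-value 12 rose and 2 fell, with a list median of 0.48. The smallest adjusted p-values among those that rose in the authors' deposited table belonged to Mfge8 (lactadherin), Ntn4 (netrin 4, a laminin-binding protein) and Fbn2 (the fetal fibrillin), listed at 1.36 (SE 0.15), 1.62 (SE 0.20) and 1.85 (SE 0.24) on the log2 scale. The 2 that fell were Smoc2, a SPARC-related calcium-binding protein, at -1.98 (SE 0.18), and the laminin chain Lamb3 at -1.06 (SE 0.14) in the authors' deposited table. Relatives of the members thus went both ways: Fbn2 rose as Fbn1 did, whereas Lamb3 fell where Lamb1 rose and Smoc2 fell where Sparc rose. Of 16 further proteoglycans 5 rose and 1 fell, among them the syndecans Sdc4 and Sdc2 at 1.19 (SE 0.14) and 0.78 (SE 0.11) and Aspn (asporin) at 1.60 (SE 0.29) in the authors' deposited table. Ogn, osteoglycin, was the 1 that fell, at -0.61 (SE 0.13) in the authors' deposited table.

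Enzymes and receptors outside the set are read against the 16.6% of all tested genes that rose and the 17.4% that fell, or 40.4% and 6.6% with both groups scaled to the same total. Of 18 crosslinking and collagen-modifying enzymes 6 rose and 4 fell, or 10 and 2 under that scaling. The authors' deposited table gave 1.78 (SE 0.30) for Loxl4, another lysyl oxidase, and -0.98 (SE 0.13) for Fkbp10, a collagen chaperone. Of 30 other proteases and inhibitors 7 rose and 4 fell, or 11 and 0 under that scaling, shares near those of all genes, with a median of 0.036. Adamtsl2, which binds fibrillin, had 1.24 (SE 0.17) in the authors' deposited table, and Htra1, the most abundant of them, had -0.33 (SE 0.09). Of 23 integrins, dystroglycan and other receptors for matrix 9 rose and 2 fell. Cd44, the hyaluronan receptor that also binds osteopontin, had 1.39 (SE 0.13) in the authors' deposited table, Itga9 had -1.23 (SE 0.21), and Itgb1, the most abundant receptor and the beta chain common to most cardiac integrins, had -0.031 (SE 0.08).

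Since many of these genes are made by other heart cells, markers of those cells were read beside them. In bulk samples fewer cells of a type and less RNA per cell cannot be told apart. The counts of every marker list, here and below, stand beside 16.6% of all tested genes that rose and 17.4% that fell. All 10 cardiomyocyte markers were present, with base means from 10438 to 594986, and 8 of them fell. Falls were more frequent among abundant genes, at 40.1% of all tested genes with base means from 1000 to 10000. All 10 markers lie above that range, where the share of all tested genes that fell was not computed. Of 12 fibroblast markers with an adjusted p-value 4 rose and 0 fell, and all 13 with a fold change were positive; their summed implied means were 3132 normalized counts in GFP and 4363 in dnMKL1 cells, a log2 ratio of 0.48. The summed means of the 45 matrix genes also had a log2 ratio of 0.48, but both sums lean on single genes: it was 0.36 for the matrix genes without Sparc, and 0.54 for the fibroblast markers without Col3a1, which supplied 1937 of the 3132 normalized counts in GFP cells. Col1a2, Col1a1 and Mfap4 had 0.64 (SE 0.14), 0.67 (SE 0.17) and 0.74 (SE 0.25) in the authors' deposited table, and the receptor Pdgfra, which defines fibroblasts, had 0.063 (SE 0.25). The part of fibroblast RNA in the rises was not tested. The lower end of the 95% interval was above 0.79 for 9 members: Thbs4, Thbs1, Loxl2, Cspg4, Fbln1, Vcan, Loxl1, Agrn and Sparc. That value (SE 0.52) is the one listed for Tcf21 in the authors' deposited table, at a base mean of 8.4. It was the highest fold change among the 12 fibroblast markers with an adjusted p, a list that leaves out the members. Fbln1 and Cspg4, counted among the 9, are themselves used as fibroblast or pericyte markers. The SE of Tcf21 did not enter this count, and no difference from Tcf21 was tested. The 10 members that are themselves fibroblast or pericyte markers included 2 that rose, Fbln1 and Cspg4, against 21 of 35 for the rest. Their median was 0.40, against 0.61 for the rest. By summed implied means the order was reversed. The 10 went from 2894 to 5973 normalized counts, a log2 ratio of 1.05, against 0.42 for the rest. Most of that gain came from Fbln1, with 748 and 1944 normalized counts, and Cspg4, with 501 and 2019. The ratio without these 2 genes was not computed, so the reversed order may rest on them.

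Pericyte markers were read beside Cspg4, and the part of pericyte RNA in its rise was not tested. By the deposited Wald test 0 of 9 passed in either direction, with 1 unadjusted p under 0.05, and their log2 fold changes ran from -0.33 to 0.45 in the authors' deposited table. Their SEs there ran from 0.15 (Abcc9) to 0.51 (Ndufa4l2), so the absence of calls does not show that they were unchanged. The summed implied means of that list were 7298 and 8837 normalized counts, most of them from Abcc9. Without Abcc9 the sums were 966 in GFP and 1064 in dnMKL1 cells, a log2 ratio of 0.14. Smooth muscle markers had 2 of 6 that rose, Tagln and Myh11, and 1 that fell, Acta2, with sums of 10658 in GFP and 5309 in dnMKL1 cells. Acta2 alone supplied 10454 and 4999 of these; the other 5 had positive fold changes, and their sums were 204 and 310. By the deposited Wald test 0 of 11 endothelial markers passed, none at an unadjusted p under 0.05, and their sums were 4278 and 4341. The SEs of these 11 ran from 0.25 (Flt1) to 0.52 (Fabp4) in the authors' deposited table, and the same limit holds for them. Of 8 macrophage markers 1 rose (Cd68), with sums of 169 and 149; of 5 Schwann cell markers 1 rose (Cnp), with sums of 94.0 and 155. By the deposited Wald test 0 of 6 epicardial markers passed, 0 at an unadjusted p under 0.05, with sums of 58.6 and 57.4. No marker in these lists was listed at 0, and Adgre1 of the macrophage list was not analysed here.

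**Figure D4:**
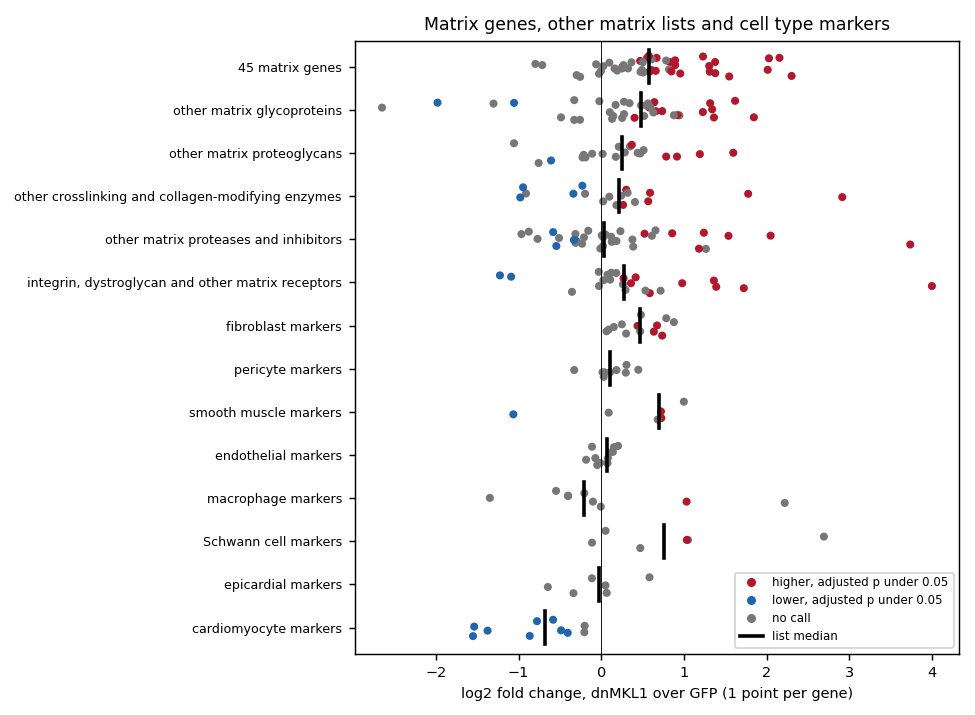
Log2 fold change of dnMKL1 over GFP (x axis) for each gene of the matrix set, of 5 lists of other matrix genes and of 8 marker lists; red and blue mark higher and lower genes at an adjusted p under 0.05, grey marks no call, and black bars are list medians. The matrix set has its median at 0.58 and no blue point, endothelial markers lie close to 0, and cardiomyocyte markers lie below 0.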

How the data were processed

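RNA was measured in sorted cardiomyocytes in 5 GFP and 5 dnMKL1 libraries. Per the labels' protocols, 10 ng of total RNA was reverse transcribed and amplified over 8 PCR cycles with a SMART-Seq kit, and 500 pg of cDNA entered Nextera XT preparation, which does not mark strand. Per the submitters' processing notes, CASAVA 1.8, STAR 2.5.3a, featureCounts from Subread 1.5.2 and the build mm10 were used. The deposited table has the columns of a DESeq2 result per the file headers. Its base mean is a signal: the authors divided counts by size factors and averaged them. The deposited fold changes and SEs are log2 values. The deposited statistic is a score, the fold change over its SE, with a deposited two-sided p-value and its Benjamini-Hochberg adjustment.

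Implied group means take the base mean as the average of equal groups. Intervals are the log2 fold change ± 1.96 SE, a 95% level. Library totals were estimated from size factors recovered from genes with 1 read in 1 library, times the group's summed implied means; intervals cover the deposited error only. Exon lengths, gene overlaps and positions came from GENCODE vM21 on GRCm38, the build called mm10, matched by symbol for all 45 genes. The recomputed adjustment and shifted Wald tests were tested on simulated data. Python 3.11.15, pandas 2.3.3 and scipy 1.17.1 were used.

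The members, the lists and the tests were chosen with earlier results of these data known. The rule for naming genes was to account for every member, with full values for each member past an adjusted p of 0.05, and from each list to consider the 3 smallest adjusted p-values in each direction and the most abundant gene. Pdgfra, Tcf21 and the members with the largest SE ratios were named after their values were seen. Count tests of single libraries were not run, since the file analysed here holds only the comparison. The labels call the libraries biological replicates; whether a library is 1 animal is not given in the sources used here.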

Additional observations from a re-analysis of the deposited data

How the results depend on the processing

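No paired analysis was possible because the file analysed lists the comparison and no library, to which replicate numbers would apply. The edgeR fits, the fits without each library in turn, other size factors and other filters on low counts could therefore not be made, and the weight of any 1 library was not tested. The number of matrix genes that rose was 23, and it was 17 at an adjusted p under 0.01, 28 under 0.1, 22 when all p-values entered the adjustment (Fbn1 was lost) and 17 of 31 with a base mean of at least 100. A minimum log2 fold change of 1 left 10, since fewer genes can pass. None of the alternatives run called a member lower.

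Scaling both groups to the same total raised the number that rose to 36 and the median from 0.58 to 0.86, by the shift itself. It turned the sign of Pcolce to 0.23, Lamb2 to 0.031, Sparcl1 to 0.28 and Adamts5 to 0.26, none past the threshold. It moved the number of higher genes to 19 of 34 other glycoproteins, 8 of 16 other proteoglycans and 10 of 18 other crosslinking enzymes (with 2 lower). Under this scaling 11 of 30 other proteases and inhibitors (with 0 lower), 15 of 23 receptors, 7 of 12 fibroblast markers and 2 of 9 pericyte markers were higher. Of all tested genes 40.4% were then higher and 6.6% lower. At an adjusted p under 0.01, 2 of 12 fibroblast and 0 of 8 macrophage markers were higher, beside 11.9% of all tested genes. The threshold of 0.01 lost 6 members (Fbn1, Fbln5, Serpinh1, Bgn, Fmod and Tnc), and that of 0.1 added 5 (Lox, Lamc1, Postn, Tnxb and Mgp). Low depth limits Spp1 most, at a base mean of 3.0 normalized counts.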
